A study of Mus musculus with 27 samples.

Results

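The genes described here are 8 classical markers of alternative macrophage activation, Arg1, Chil3, Retnla, Mrc1, Mgl2, Clec10a, Tgm2 and Irs2. They were taken by gene symbol from a table of 45070 genes, and each symbol had 1 row. The samples were wild-type bone marrow-derived macrophages (BMDMs), primary macrophages grown from the marrow of young adult male C57/BL6 mice, and all of them, controls included, had been kept with DMSO, the vehicle of the inhibitors used elsewhere in the study, for 1 h. They were then left untreated or received lipopolysaccharide (LPS) at 10 ng/ml or interleukin-4 (IL-4) at 10 ng/ml for 0.5, 1, 2 or 4 h. The RNA bound to chromatin, rich in transcripts that are still being made, was sequenced in 27 samples that formed 9 groups of 3 replicates. The time courses served in the study to find genes under the control of either stimulus. The labels do not say whether the replicates were separate cultures or animals, so all p-values measure the spread between these samples, which may be technical.

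IL-4 binds a receptor that signals through JAK kinases to the transcription factor STAT6, and macrophages exposed to it take up the alternatively activated state known from helminth infection, tissue repair and allergy. LPS, a bacterial cell wall component, acts through the receptor TLR4 and drives the classical, inflammatory state. The 8 genes encode different parts of the alternative state: the enzymes Arg1 and Tgm2, the secreted proteins Chil3 and Retnla, the surface lectins Mrc1, Mgl2 and Clec10a, and the signalling adaptor Irs2.

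Values are normalised read counts per gene, scaled by the authors on invariant genes. A gene entered the tests if 3 or more of the 27 samples held 10 or more normalised read counts, which 13901 did, and 7 of the 8 markers were among them. Changes are differences in mean log2(value + 1), given with their standard error (SE), and were called at an adjusted p under 0.05 in limma. Chil3 did not reach the limit. A group in which every replicate held 3 normalised read counts or fewer is called too low to read: this applied to Chil3 in all 9 groups, to Retnla in untreated cells, in the 4 LPS groups and at IL-4 0.5 h, to Mgl2 in the 4 LPS groups and to Clec10a at LPS 4 h. Arg1, Retnla and Mgl2 passed the limit only through their IL-4 groups, where they were high: outside the IL-4 samples 2, 0 and 0 samples reached it. Such genes had to differ, so counts over the tested markers are given as a description.

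The sums of normalised read counts were 2469768 to 2790981 in untreated and IL-4 cells against 3571492 to 4058199 in the LPS samples. Across all tested genes the median log2 change was −0.24, −0.30, −0.29 and −0.26 at LPS 0.5, 1, 2 and 4 h and between −0.02 and 0.02 after IL-4, so an LPS change of 0 lies above that of the median gene. The 10 macrophage markers were all tested and summed to 10064 to 19854 normalised read counts per sample. Those of dendritic cells, which can also express Mgl2 and Clec10a, summed to 13 to 16 in untreated cells, 35 to 81 at IL-4 4 h and up to 127 in the LPS samples, with Xcr1 and Cd209a never over 3, and their part in the values of these lectins was not tested. Those of neutrophils summed to 7 to 148, with Elane, Mpo and Ly6g never over 3. Markers of mast cells or basophils reached 9, of eosinophils 91 (2 to 7 untreated, 44 to 91 at LPS 0.5 h and 3 to 7 at IL-4 4 h), of T cells 37, of B cells 8 and of fibroblasts 218. Single genes made up much of these sums. Ccr3 had a mean of 67 at LPS 0.5 h, while the eosinophil markers Epx, Prg2 and Siglecf were never over 3. Lck had a mean of 24.7 at LPS 2 h, while the T cell markers Cd3e and Cd3d were never over 3. Of the fibroblast markers Col1a1 and Col1a2 were the highest, and Col3a1 was never over 3. In bulk samples fewer cells of a type and less RNA per cell cannot be told apart.

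After IL-4, 6 of the 7 tested markers changed over the course by the moderated F test, against 40.3% of all tested genes. Of the 4 that reached the limit also outside the IL-4 samples, Mrc1, Tgm2 and Irs2 were called and Clec10a was not. The shares over all genes depend on which replicate is left out. Without replicate 2 and without replicate 3 the genes called over the course went from 5606 to 2234 and 2169. Those called from 2 to 4 h went from 762 to 11 and 32. Without replicate 1 the counts rose to 6546 over the course and 1402 from 2 to 4 h. All called changes of the markers were rises: 5 at 0.5 h, where 8.15% of all tested genes were called higher, 6 at 1 h (11.1%), 4 at 2 h (14.3%) and 6 at 4 h (13.4%). These counts include Arg1, Retnla and Mgl2, which entered the tests only through their high IL-4 groups. Of the 4 other markers, Mrc1, Tgm2 and Irs2 were called at 0.5 and 1 h. Mrc1 was called at 2 h, and Mrc1, Clec10a and Irs2 at 4 h. The time courses of the markers differed in form. Mrc1 and Irs2 were raised by 0.5 h, Tgm2 was raised at 0.5 and 1 h and back near untreated values at 4 h, and Retnla was highest at 4 h. Between neighbouring IL-4 times 1 marker moved from 0.5 to 1 h (7.82% of all tested genes did), 3 from 1 to 2 h (9.4%) and 4 from 2 to 4 h (5.48%). Retnla is among those from 1 to 2 h and from 2 to 4 h.

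**Figure D1:**
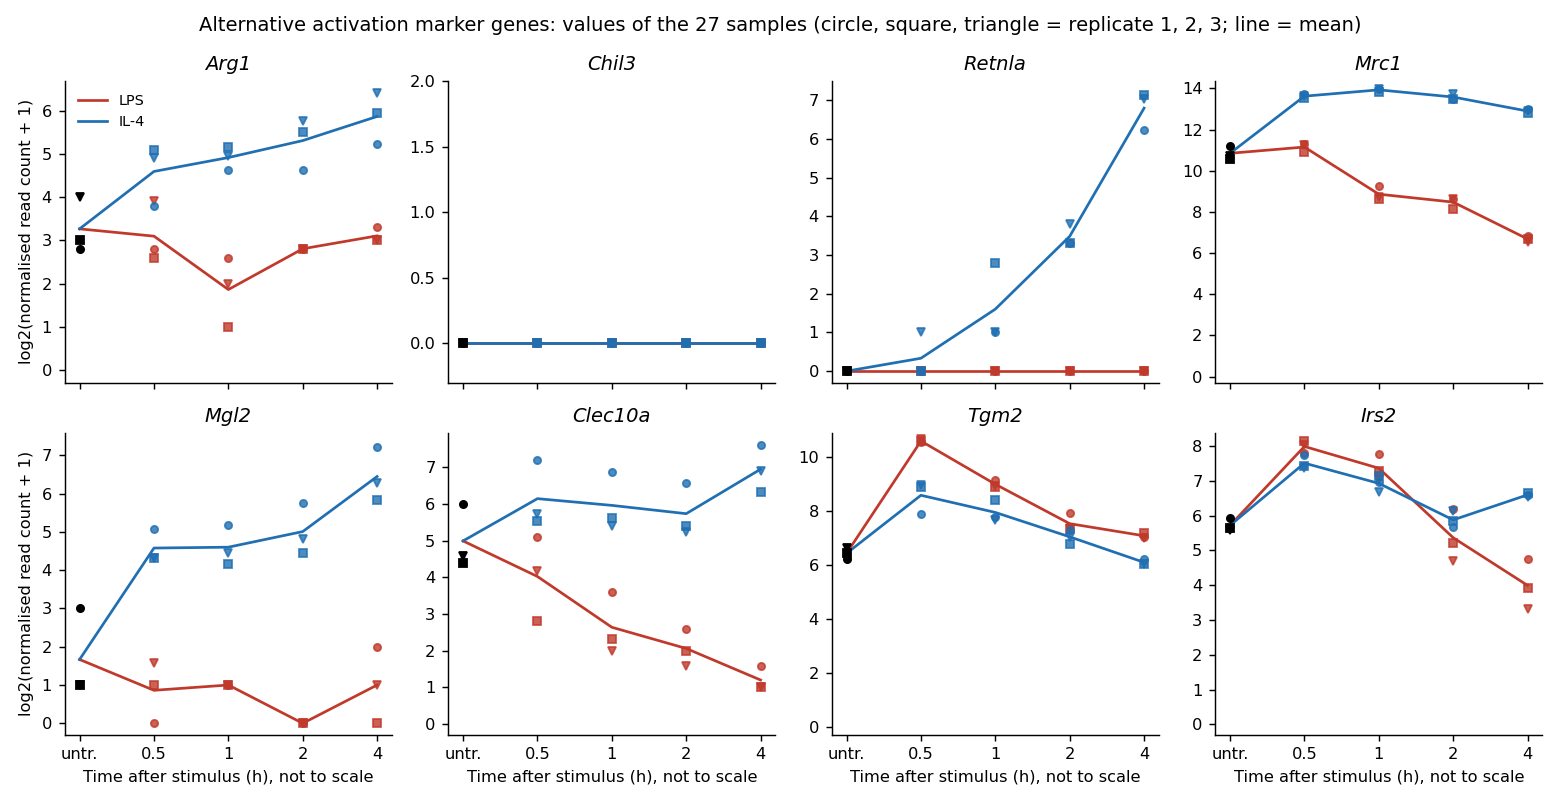
Values of the 8 marker genes in all 27 samples, as log2(normalised read count + 1), against time after LPS (red) or IL-4 (blue), with untreated samples in black. Symbols stand for replicates 1, 2 and 3 and lines join group means; Chil3 lies at 0 in every sample, and Mrc1, Mgl2 and Clec10a part into a blue upper and a red lower course.

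Mrc1 (chromosome 2, 14229414 to 14332023, plus strand) encodes the mannose receptor CD206, an endocytic receptor for mannose-bearing glycans. Its untreated replicates held 2386, 1541 and 1708 normalised read counts. After IL-4 they held 13492, 11707 and 12783 at 0.5 h, then 16253, 14498 and 16212 at 1 h, then 11547, 11634 and 13780 at 2 h, and 8200, 7113 and 7664 at 4 h. No IL-4 sample overlapped an untreated one at any time. The mean was 8.33-fold higher at 1 h (log2 change 3.08, SE 0.14, adjusted p 5.66e-09) and 4.08-fold higher at 4 h (2.05, SE 0.14, adjusted p 1.86e-07), and the fall from 2 to 4 h passed the test of that step (−0.68, SE 0.14, adjusted p 0.0125). Without replicate 2 or without replicate 3 none of the markers passed that step. Without replicate 1, 6 markers passed it, Mrc1 among them (adjusted p 0.00124).

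After LPS, Mrc1 held 2511, 1959 and 2403 normalised read counts at 0.5 h, within or near the untreated range. The log2 change at 0.5 h was 0.30 (SE 0.19, adjusted p 0.202), became 0.42 and passed without replicate 1 (adjusted p 0.0236), and was −0.21 with the libraries scaled to equal totals. With median-of-ratios scaling the change at 0.5 h was 0.56 and passed (adjusted p 0.0481), so its sign depended on the scaling. The later LPS samples lay below all untreated ones, at 606, 396 and 418 at 1 h, then 393, 285 and 401 at 2 h, and 112, 103 and 92 at 4 h. Mrc1 fell 3.97-fold at 1 h (log2 change −1.99, SE 0.19, adjusted p 3.72e-07) and 18.4-fold at 4 h (−4.16, SE 0.19, adjusted p 4.71e-11). The steps from 0.5 to 1 h (−2.29, adjusted p 2.03e-07) and from 2 to 4 h (−1.79, adjusted p 8.75e-06) passed, and that from 1 to 2 h did not (−0.39, adjusted p 0.126). Mir511, a microRNA gene that lies inside Mrc1 on the same strand, had medians of 4 normalised read counts in untreated cells, 36, 27, 24 and 12 over the IL-4 course and 1, 1, 0 and 0 over the LPS course, and its reads may be counted with those of Mrc1.

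Mgl2 and Clec10a are related lectins that bind galactose and N-acetylgalactosamine, and both are transcribed from the plus strand of chromosome 11. Mgl2 (70130357 to 70137542) held 7, 1 and 1 normalised read counts in untreated cells. After IL-4 it held 33, 19 and 19 at 0.5 h, then 35, 17 and 21 at 1 h, then 53, 21 and 27 at 2 h, and 148, 56 and 77 at 4 h, with no overlap with untreated at any time. The log2 rise was 2.91 at 0.5 h (SE 0.54, adjusted p 0.00187) and 4.78 at 4 h (SE 0.54, adjusted p 1.95e-05), when the mean was 31.2-fold higher. Calls at 0.5 and 1 h were lost when a replicate number was left out of all groups, with rises of similar size: at 0.5 h the log2 rise was 2.70 both without replicate 2 (adjusted p 0.0715) and without replicate 3 (0.102), and at 1 h it was 2.67 without replicate 3 (0.0827), against 2.93 with all samples. None of the steps between neighbouring IL-4 times passed. In the LPS samples Mgl2 held 0 to 3 normalised read counts, and the called difference at 2 h (adjusted p 0.0219), where all 3 replicates were at 0, was lost without replicate 1 (0.0919) and also without replicate 3 (0.0647), so no fall was read from it. Gm12311, a pseudogene on the other strand, overlaps 3449 bases of Mgl2 and had medians of 4, 5, 10 and 20 over the IL-4 course and 0 in untreated and LPS cells. How the reads of such pairs were divided is not given in the sources used here, so the values of Mgl2 are uncertain to that extent.

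Clec10a (70166623 to 70170836), which overlaps no other gene, held 63, 20 and 23 normalised read counts in untreated cells. After IL-4 it held 145, 45 and 52 at 0.5 h, then 117, 48 and 41 at 1 h, then 94, 41 and 37 at 2 h, and 194, 80 and 119 at 4 h. The groups at 0.5, 1 and 2 h overlapped untreated and the group at 4 h did not. Only the contrast at 4 h passed (log2 change 1.96, SE 0.57, adjusted p 0.0217, 3.71-fold), and its F test did not (adjusted p 0.109).

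The spread of Clec10a followed the replicate number. Replicate 1 was the highest of the 3 in all 8 groups with a replicate above 3 normalised read counts, with a median ratio of 2.75 to the mean of replicates 2 and 3. For Mgl2 replicate 1 was the highest in 5 of 5 such groups, with a median ratio of 2.21, whereas for Mrc1 the ratio was 1.15 and for Arg1 0.632. Without replicate 1 the rises of Clec10a at 0.5, 1 and 2 h passed, with log2 changes of 1.14, 1.01 and 0.83 and adjusted p of 0.00325, 0.00475 and 0.0113. The call at 4 h was lost without replicate 2 (adjusted p 0.147) and without replicate 3 (0.218), with changes of 1.96 and 1.78, and also when low genes were kept in the test (0.0787) or the mean of both replicates was used (0.161).

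**Figure D2:**
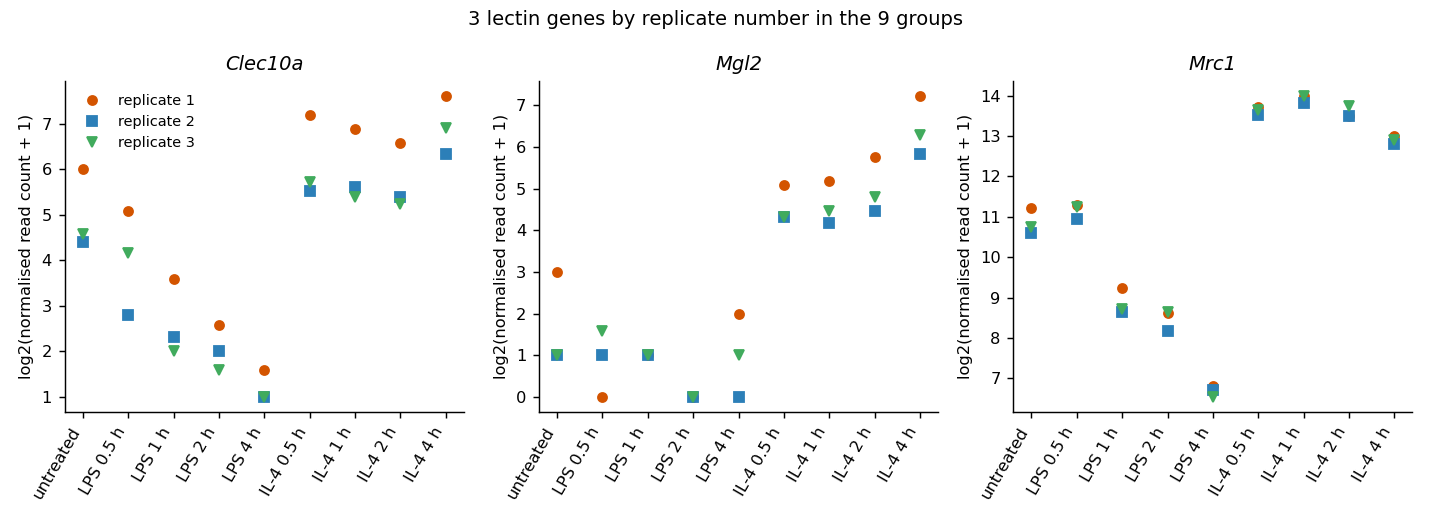
log2(normalised read count + 1) of Clec10a, Mgl2 and Mrc1 in the 9 groups, with 1 symbol per replicate number. Replicate 1 of Clec10a lies above the other 2 replicates in every group, by a median ratio of 2.75 in the 8 groups with a replicate above 3 normalised read counts, while the 3 replicates of Mrc1 lie close together.

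After LPS, Clec10a held 33, 6 and 17 normalised read counts at 0.5 h, then 11, 4 and 3 at 1 h, then 5, 3 and 2 at 2 h, and 2, 1 and 1 at 4 h. From 1 h on all LPS samples lay below all untreated ones. The fall was 5.89-fold at 1 h (log2 change −2.36, SE 0.58, adjusted p 0.00242) and 10.6-fold at 2 h (−2.94, SE 0.58, adjusted p 0.000382). At 4 h it was at least 11.8-fold, computed against a floor of 3 normalised read counts per library.

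Retnla and Chil3 encode secreted proteins, resistin-like alpha and the chitinase-like protein Ym1, that are widely used as protein markers of alternative activation. Retnla (chromosome 16, 48842609 to 48844461, plus strand) was listed at 0 in the 3 untreated and all LPS samples. After IL-4 it held 0, 0 and 1 normalised read counts at 0.5 h, then 1, 6 and 1 at 1 h, then 9, 9 and 13 at 2 h, and 74, 140 and 129 at 4 h. At 4 h it was at least 38.1-fold and at 2 h at least 3.44-fold higher than in untreated cells, against the same floor (adjusted p 1.56e-07 and 5.94e-05). The call at 1 h (adjusted p 0.0214) was lost with a pseudocount of 8 (0.251), when either replicate 2 (0.22) or replicate 3 (0.0886) was left out or their mean was used (0.0748), and when low genes were kept in the test (0.0701). The steps from 1 to 2 h (log2 change 1.88, SE 0.45, adjusted p 0.0185) and from 2 to 4 h (3.31, SE 0.45, adjusted p 0.000883) passed. The former step was lost without replicate 1 (adjusted p 0.0766) and without replicate 3 (0.345), and the latter without replicate 2 (0.0563) and without replicate 3 (0.0827). Of the related genes, Retnlg held 0 to 2 and Retnlb 0 to 1 normalised read counts.

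Chil3 (chromosome 3, 106147554 to 106167564, minus strand) was listed at 0 in 27 of 27 samples, at IL-4 4 h as in untreated cells. A 0 does not show that the gene was silent. The most frequent value above 0 was 1 in all 27 libraries, so 1 read counted for less than 1.5 normalised read counts, but the number of reads in each library is not given by the values. Its close relatives Chil4 and Chia1 were also at 0 in all samples, and Chil1 held 1 to 9. The authors removed reads that aligned to several places, which can lower genes with near-identical copies such as Chil3 and Chil4, and its part in these zeros was not tested.

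The bases just before the transcription start are shown for both of these genes, both known as IL-4 targets, and for Mrc1 and Mgl2, which rose within 0.5 h. They are the 200 bases upstream of the RefSeq start (GRCm38.p6), read 5′ to 3′ on the strand of the gene. Capitals mark matches to 7 motifs searched on both strands. The STAT6 motif was TTC, any 4 bases and then the letters GAA. A general STAT motif was TTC, any 3 bases and then the letters GAA. The NF-kB motif was GGG, any 3 bases and then the letters TTCC. The C/EBP motif was TTGCNNAA. The AP-1 motif was TGANTCA, the PU.1 motif was GAGGAAGT, and the TATA box was written as TATAAA. The windows lie at chr16:48842409-48842608 (Retnla), chr3:106167565-106167764 (Chil3, minus strand), chr2:14229214-14229413 (Mrc1) and chr11:70130157-70130356 (Mgl2).
Retnla: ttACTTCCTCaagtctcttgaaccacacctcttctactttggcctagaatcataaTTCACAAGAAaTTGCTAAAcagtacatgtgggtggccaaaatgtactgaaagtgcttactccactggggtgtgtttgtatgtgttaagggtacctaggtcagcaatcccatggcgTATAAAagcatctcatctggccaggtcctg
Chil3: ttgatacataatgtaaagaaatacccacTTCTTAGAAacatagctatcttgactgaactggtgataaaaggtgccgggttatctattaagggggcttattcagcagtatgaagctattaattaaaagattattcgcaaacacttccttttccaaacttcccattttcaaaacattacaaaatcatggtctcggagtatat
Mrc1: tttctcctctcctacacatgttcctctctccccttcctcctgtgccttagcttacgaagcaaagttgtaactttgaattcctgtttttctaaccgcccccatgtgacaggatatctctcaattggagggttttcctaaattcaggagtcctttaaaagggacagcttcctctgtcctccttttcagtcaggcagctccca
Mgl2: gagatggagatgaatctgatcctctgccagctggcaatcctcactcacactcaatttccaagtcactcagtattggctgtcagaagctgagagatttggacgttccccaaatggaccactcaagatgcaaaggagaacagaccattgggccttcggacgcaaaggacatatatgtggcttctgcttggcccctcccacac

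The Retnla window held TTCACAAGAA at 145 to 136 bases before the start, TTGCTAAA at 134 to 127, TATAAA at 30 to 25, and, on the other strand, a PU.1 match at 198 to 191. None of these matches overlapped another. The Chil3 window held TTCTTAGAA at 172 to 164 bases before the start, and those of Mrc1, Mgl2 and Irs2 held none of the 7 motifs within 250 bases. Among 32851 RefSeq windows of 250 bases, 5.85% held the STAT6 motif, 7.02% the general STAT motif, 4.65% the NF-kB, 9.56% the C/EBP, 6.75% the AP-1, 2.44% the PU.1 and 12.4% the TATA motif. A match is a description of the letters in this window. Windows of 5 of the 8 genes were at hand, and Arg1, Clec10a and Tgm2 were not searched.

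Arg1 (chromosome 10, 24915207 to 24927470, minus strand) encodes arginase 1, which splits arginine into ornithine and urea. It held 6, 7 and 15 normalised read counts in untreated cells, and after IL-4 13, 33 and 29 at 0.5 h, then 24, 35 and 30 at 1 h, then 24, 45 and 54 at 2 h, and 37, 61 and 85 at 4 h. The IL-4 samples overlapped untreated ones at 0.5 h and at no later time. The mean was 3.18-fold higher at 1 h (log2 change 1.65, SE 0.43, adjusted p 0.0127), 4.39-fold higher at 2 h (2.05, SE 0.43, adjusted p 0.00256) and 6.54-fold higher at 4 h (2.61, SE 0.43, adjusted p 0.000452). None of the steps between neighbouring times passed, and the ranges of neighbouring IL-4 groups overlapped. Without replicate 2 the calls at 0.5 h (adjusted p 0.528), 1 h (0.249) and 2 h (0.101) were lost and that at 4 h was kept, and the call at 0.5 h (0.0489) was also lost without replicate 3 (0.133) and under 5 further settings. Gm40616, a non-coding gene on the other strand that overlaps 4781 bases of Arg1, had medians of 0 in untreated cells and 9, 9, 15 and 17 over the IL-4 course, and the division of reads between the pair is not known.

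After LPS, Arg1 held 6, 5 and 14 normalised read counts at 0.5 h, then 5, 1 and 3 at 1 h, then 6, 6 and 6 at 2 h, and 9, 7 and 7 at 4 h. All groups except that at 1 h overlapped untreated. The difference at 1 h (−1.41, SE 0.45, adjusted p 0.0127) was lost without replicate 2 (0.114) and without replicate 3 (0.118). Arg2, the mitochondrial arginase, held 21.7 ± 1.15 normalised read counts before stimulation (SD, n = 3), 139 ± 38.2 at LPS 0.5 h (log2 change 2.58, adjusted p 1.21e-06) and 50.3 ± 13.1 at IL-4 0.5 h (1.15, adjusted p 0.00135), and was at 20 ± 1 and 21 ± 2.65 at IL-4 2 and 4 h.

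Tgm2 (chromosome 2, 158116405 to 158146392, minus strand) encodes transglutaminase 2, which cross-links proteins. It held 74, 87 and 97 normalised read counts in untreated cells. After IL-4 it held 238, 477 and 500 at 0.5 h, then 221, 337 and 202 at 1 h, then 157, 110 and 131 at 2 h, and 73, 65 and 65 at 4 h, all above untreated up to 2 h and all below at 4 h. The rise was 4.71-fold at 0.5 h (log2 change 2.16, SE 0.26, adjusted p 4.93e-05) and 2.95-fold at 1 h (1.52, SE 0.26, adjusted p 0.000681). The differences at 2 h (0.61, adjusted p 0.0983) and 4 h (−0.33, adjusted p 0.396) did not pass. The falls from 1 to 2 h (−0.91, adjusted p 0.0426) and from 2 to 4 h (−0.95, adjusted p 0.0495) did, but each was lost without replicate 2 (adjusted p 0.55 and 0.268) and without replicate 3 (0.228 and 0.396).

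Under LPS, Tgm2 held 1499, 1544 and 1626 normalised read counts at 0.5 h, then 574, 472 and 492 at 1 h, then 243, 159 and 163 at 2 h, and 131, 146 and 128 at 4 h. Every LPS sample lay above every untreated one. The rise was 18.1-fold at 0.5 h (log2 change 4.17, SE 0.16, adjusted p 9.28e-12), 5.96-fold at 1 h, 2.19-fold at 2 h and 1.57-fold at 4 h (0.65, SE 0.16, adjusted p 0.002), and with libraries scaled to equal totals the change at 4 h was 0.05 (adjusted p 0.791). The falls from 0.5 to 1 h (−1.60, adjusted p 8.44e-07) and from 1 to 2 h (−1.46, adjusted p 1.71e-06) passed. Of its relatives, Tgm1 held 0 to 7 normalised read counts, and F13a1, which encodes the A chain of coagulation factor XIII, held 31 to 6199 with a wide spread between replicates and fell by 5.54 in log2 at LPS 4 h (adjusted p 1.68e-07).

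Irs2 (chromosome 8, 10984681 to 11008929, minus strand) encodes an adaptor that is phosphorylated below the insulin, IGF-1 and IL-4 receptors and recruits PI3 kinase. It held 60, 49 and 47 normalised read counts in untreated cells. After IL-4 it held 214, 170 and 164 at 0.5 h, then 124, 141 and 101 at 1 h, then 50, 56 and 69 at 2 h, and 96, 100 and 92 at 4 h. The course rose, returned to the untreated range at 2 h and rose again. The changes against untreated were 1.79 at 0.5 h (SE 0.16, adjusted p 3.09e-06), 1.21 at 1 h (adjusted p 6.72e-05), 0.16 at 2 h (adjusted p 0.515) and 0.88 at 4 h (adjusted p 0.000874), the last of which did not pass without replicate 2 (adjusted p 0.0541). All 3 steps passed, at −0.58 (adjusted p 0.0379), −1.05 (0.000848) and 0.72 (SE 0.16, 0.0167). With 1 replicate left out, the adjusted p of the first step was 0.0828 to 0.265, that of the middle step was 0.111 without replicate 2, and that of the last was 0.307 without replicate 2 and 0.116 without replicate 3, so none of these steps held in every such fit.

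After LPS, Irs2 held 224, 280 and 259 normalised read counts at 0.5 h, then 218, 156 and 129 at 1 h, then 72, 36 and 25 at 2 h, and 26, 14 and 9 at 4 h. The first 2 groups lay above untreated, that at 2 h overlapped it and that at 4 h lay below. The rise at 0.5 h was 4.89-fold (log2 change 2.27, SE 0.36, adjusted p 8.53e-05) and the fall at 4 h was 3.18-fold (−1.73, SE 0.36, adjusted p 0.00065). The steps from 1 to 2 h (adjusted p 0.000312) and from 2 to 4 h (−1.37, adjusted p 0.0121) passed, and the latter was lost without replicate 2 (0.16) and without replicate 3 (0.0588). The related Irs1 held 0 to 34 normalised read counts and was not called in either course (F test adjusted p 0.803 for IL-4 and 0.328 for LPS).

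Over the LPS course 4 of the 7 tested markers changed by the F test (Mrc1, Clec10a, Tgm2 and Irs2), against 87.6% of all tested genes. At 0.5 h 2 were called, both higher, where 53.9% of all tested genes were called, 19.6% higher and 34.4% lower. At 1 h 5 were called, 2 higher and 3 lower (63.8% of all tested genes, 24.8% higher and 39% lower). At 2 h the count was 4, with 1 higher and 3 lower (65.9%, 26.9% higher and 39% lower), and at 4 h again 4, with 1 higher and 3 lower (63.5%, 25.9% higher and 37.6% lower). The share of markers called was near or below the background at each LPS time, and the 3 lower at 2 h include Mgl2, which was too low to read. Between neighbouring LPS times 3 markers moved from 0.5 to 1 h (49.7% of all tested genes did), 2 from 1 to 2 h (43.3%) and 2 from 2 to 4 h (22.9%).

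**Figure D3:**
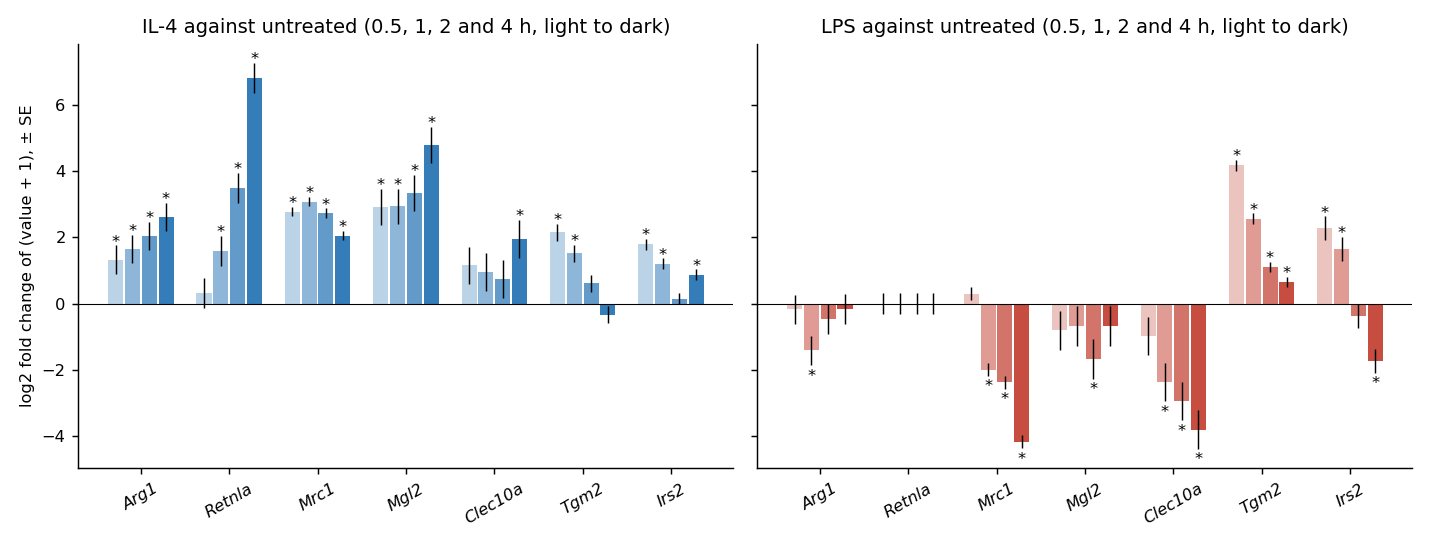
log2 change of (value + 1) against untreated at the 4 times (light to dark bars, 0.5 to 4 h) for the 7 tested markers after IL-4 (left) and LPS (right), with bars of ± 1 SE. Asterisks mark an adjusted p under 0.05: all IL-4 asterisks stand above 0, and LPS asterisks above 0 belong to Tgm2 and Irs2.

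LPS and IL-4 were then compared directly at each time, in a fit of all 27 samples. At 0.5 h 5 of the 7 markers differed (53.8% of all tested genes did), at 1 h 6 (64.5%), at 2 h 5 (68.6%) and at 4 h 7 (68%). The counts include Arg1, Retnla and Mgl2, which entered the tests only through their high IL-4 groups. Of the 4 other markers, Mrc1 and Clec10a were called at all 4 times, Tgm2 at 0.5, 1 and 4 h and Irs2 at 4 h. Tgm2 was the marker higher after LPS wherever there was one, so the counts of higher markers were 1, 1, 0 and 1, and 4, 5, 5 and 6 were lower. Of all tested genes 18%, 24%, 26.4% and 26.1% were higher after LPS and 35.8%, 40.5%, 42.3% and 41.9% lower. The lectins differed at all 4 times. The log2 difference of Mrc1, LPS minus IL-4, was −2.47 at 0.5 h (SE 0.16, adjusted p 9.15e-12) and −6.21 at 4 h (SE 0.16, adjusted p 1.67e-19), and that of Clec10a −2.13 (SE 0.58, adjusted p 0.0036) and −5.76 (SE 0.58, adjusted p 6.02e-09). Mgl2 at IL-4 4 h stood at 93.7 ± 48.2 normalised read counts (SD, n = 3), at least 31.2-fold above the floor that stands for its LPS samples. Without replicate 2 the difference of Clec10a at 0.5 h did not pass (adjusted p 0.0631), and neither did that of Arg1 at 0.5 h (adjusted p 0.187).

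Arg1 was lower after LPS at all 4 times, with differences of −3.06 at 1 h (SE 0.44, adjusted p 1.61e-06) and −2.77 at 4 h (SE 0.44, adjusted p 5.66e-06). Retnla differed from 1 h on, since all its LPS samples were at 0, and at 1 h the difference did not pass without replicate 2 (adjusted p 0.0693). Tgm2 was higher after LPS by 2.01 at 0.5 h (SE 0.22, adjusted p 5.89e-08), 1.05 at 1 h (adjusted p 0.000256) and 0.99 at 4 h (adjusted p 0.000432). At 2 h the Tgm2 difference was 0.49 (SE 0.22, adjusted p 0.0554), and at equal totals it was −0.14 at 2 h and 0.37 at 4 h (adjusted p 0.127). With median-of-ratios scaling the Tgm2 difference at 2 h was 0.77 and passed (adjusted p 0.00469). It also passed without replicate 1 (adjusted p 0.0212) and with sample weights (adjusted p 0.043). For Irs2 no difference passed at 0.5 h (0.48, SE 0.30, adjusted p 0.194) or 1 h (0.43, SE 0.30, adjusted p 0.216). That at 2 h did not pass either (−0.51, SE 0.30, adjusted p 0.139). Without replicate 1 those at 0.5 h (0.69, adjusted p 0.00705) and 2 h (−1.03, adjusted p 0.000143) passed. With sample weights both passed as well (0.59, adjusted p 0.0401, and −0.97, adjusted p 0.000232). The difference at 2 h also passed at equal totals (−1.13, adjusted p 0.00155). At 4 h Irs2 was lower after LPS (−2.60, SE 0.30, adjusted p 5.99e-08).

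**Figure D4:**
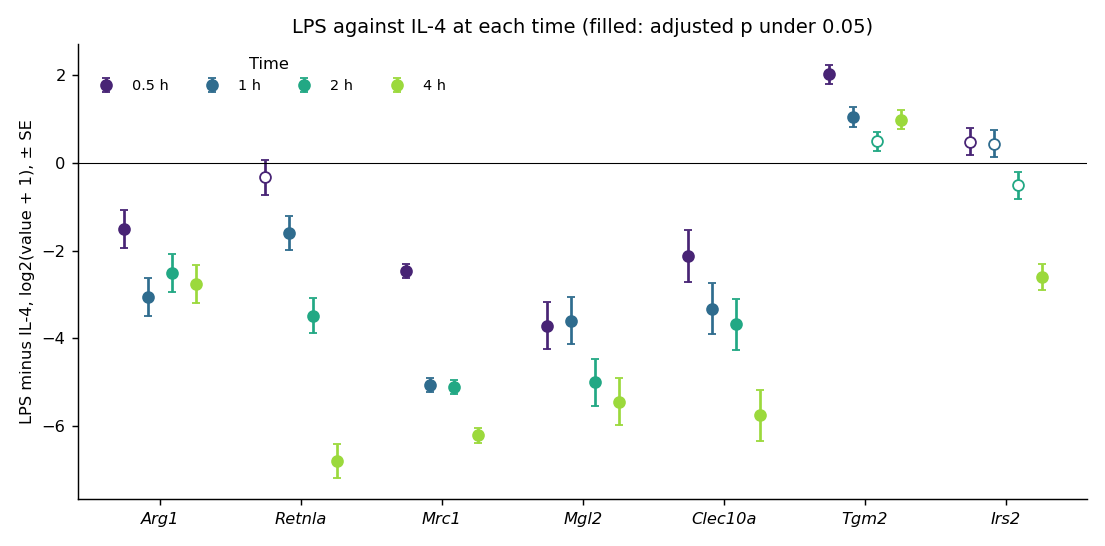
Difference between LPS and IL-4 samples in log2(value + 1), ± 1 SE, for the 7 tested markers at the 4 times, with filled points for an adjusted p under 0.05. Points below 0 are lower after LPS; Mrc1 goes from −2.47 at 0.5 h to −6.21 at 4 h, Tgm2 lies above 0 throughout, and Irs2 crosses 0 between 1 and 2 h, while with libraries scaled to equal totals Tgm2 lies at −0.14 at 2 h and Irs2 at −0.041 at 1 h.

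Ranked by group mean, Mrc1, Mgl2, Clec10a, Arg1 and Retnla had all 4 IL-4 groups at the top of the 9 groups, while the highest group of Tgm2 and of Irs2 was LPS 0.5 h. The lowest IL-4 group overlapped untreated for Retnla and Arg1 (0.5 h) and for Clec10a (2 h). Retnla at IL-4 0.5 h was too low to read, so its rank there carries no weight. For Mrc1 the order was IL-4 1, 0.5, 2 and 4 h, then LPS 0.5 h, untreated, and LPS 1, 2 and 4 h. The neighbours IL-4 0.5 and 2 h, LPS 0.5 h and untreated, and LPS 1 and 2 h overlapped. For Clec10a all neighbours in the order overlapped, and for Tgm2 LPS 0.5 h stood clear of LPS 1 h, which overlapped IL-4 0.5 h. For Irs2 LPS 0.5 h stood clear of IL-4 0.5 h.

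Over the 27 samples, which share untreated controls, replicate numbers and the scaling, the values of Mrc1 and Clec10a had a Pearson r of 0.916 in log2(value + 1), those of Mgl2 and Clec10a 0.852 and those of Arg1 and Mgl2 0.837. Tgm2 and Irs2 had an r of 0.65, and Tgm2 and Arg1 −0.39. The genes with the most similar pattern over the 27 samples were Ski (0.982), Bmp2k (0.981) and Pacc1 (0.976) for Mrc1, and Cnrip1 (0.951), Ptgs1 (0.949) and Gm33767 (0.945) for Clec10a. Those nearest to Retnla, which was at 0 in 17 of the 27 samples, were Hhip (0.961), Kcnd3 (0.938) and Aifm3 (0.927). For Mgl2 they were Klhl33 (0.917), Snx5 (0.917) and Znrf2 (0.915), and for Arg1 Alas2 (0.917), St8sia1 (0.915) and Arhgap12 (0.909). Tgm2 was nearest to Ero1a (0.938), Trib1 (0.929) and Fosl2 (0.927), and Irs2 to Sema6d (0.926), Metrnl (0.921) and Mmd (0.914).

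Other genes of alternative activation were followed as a list of 30, of which 25 were tested. Over the IL-4 course 18 changed, 14 upwards and 4 downwards by the time of the largest change (40.3% of all tested genes changed), and their median log2 change was 1.31 at 0.5 h and 0.94 at 4 h. Pdcd1lg2, the checkpoint ligand PD-L2, held 582 ± 98.1 normalised read counts at IL-4 4 h against 1.00 ± 1.00 before (SD, n = 3, adjusted p 1.13e-09), and Flt1, a VEGF receptor, from 10.0 ± 3.61 to 1169 ± 56.5 (adjusted p 6.91e-10). Cdh1, E-cadherin, was listed at 0 in untreated cells and held 40.7 ± 15.5 at 1 h (adjusted p 2.72e-05). Over the LPS course 21 of the 25 changed, 12 upwards and 9 downwards (87.6% of all tested genes), so LPS raised part of this list too. The arginine transporter gene Slc7a2 rose from 12.3 ± 1.53 to 485 ± 51.3 at IL-4 1 h (adjusted p 1.03e-10) and to 1726 ± 62.4 at LPS 4 h (adjusted p 1.06e-14), and Il1rn, the interleukin-1 receptor antagonist, to 1255 ± 625 at LPS 4 h (adjusted p 1.98e-11). The chemokine gene Ccl22 reached 69.0 ± 14.2 at LPS 4 h from 0 in untreated cells (adjusted p 2.24e-09), and the scavenger receptor gene Cd163 fell from 387 ± 40.7 to 9.33 ± 1.15 (adjusted p 8.72e-13).

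Of 18 transcription factors tied to alternative activation, 14 changed over the IL-4 course, 11 upwards and 3 downwards (40.3% of all tested genes changed), and 16 over the LPS course, 8 each way, which is near the 87.6% of all tested genes. Irf4 rose by 4.64 on the log2 scale at IL-4 4 h (adjusted p 3.71e-08), Ppargc1b, a coactivator of mitochondrial genes, by 4.27 at IL-4 4 h (adjusted p 1.98e-07) and 4.44 at LPS 2 h (adjusted p 7.18e-09), and Batf3 by 4.17 at IL-4 4 h (adjusted p 6.39e-07). Egr2 rose by 3.90 at IL-4 0.5 h and 5.35 at LPS 0.5 h, the histone demethylase gene Kdm6b by 5.65 at LPS 0.5 h (adjusted p 1.59e-09), and Rxra fell by 5.16 at LPS 4 h (adjusted p 2.49e-07). Among 20 genes of IL-4 receptor signalling 9 rose and 5 fell over the IL-4 course and 13 rose and 6 fell over the LPS course, the latter again near the share of all tested genes. The feedback inhibitors Socs1 and Cish rose under both stimuli. After IL-4 they held 196 ± 63.7 normalised read counts at 2 h against 1.00 ± 1.00 in untreated cells and 254 ± 52.5 at 4 h against 2.33 ± 2.31, and at LPS 2 h they held 156 ± 2.31 (log2 change 6.44, adjusted p 1.15e-08) and 434 ± 121 (7.19, adjusted p 2.26e-10). Socs3 rose by 6.77 at LPS 2 h (adjusted p 4.7e-13). Jak2 rose by 1.89 at IL-4 1 h (adjusted p 1.14e-06), and the receptor chain gene Il13ra1 fell, with 44 to 59 normalised read counts in untreated cells and 9 to 14 at IL-4 4 h (adjusted p 0.000113).

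Of 24 insulin and PI3K pathway genes, Irs2 included, 17 changed over the IL-4 course, 6 upwards and 11 downwards, and 23 over the LPS course, 10 upwards and 13 downwards, against 40.3% and 87.6% of all tested genes. At IL-4 0.5 h, when Irs2 was higher, 4 of the list were called higher and 8 lower, against 8.15% and 8.14% of all tested genes. Pik3cb fell by 1.38 at IL-4 2 h, Pik3cg fell by 1.12 at IL-4 4 h, and Pik3r1, the regulatory subunit recruited by IRS proteins, rose by 1.06 at IL-4 0.5 h. After LPS the lipid phosphatase gene Inpp5d fell from 2542 ± 67.7 normalised read counts to 48.3 ± 6.66 at 2 h (adjusted p 5.32e-14), Foxo3 fell by 4.48 at 2 h and Insr, the insulin receptor, fell by 3.53 at 4 h, and Pik3r5 rose by 3.66 at 1 h.

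Of 17 tested C-type lectin genes beside the 3 markers, 3 rose and 9 fell over the IL-4 course, with a median log2 change of −1.31 at 2 h, and 10 rose and 7 fell over the LPS course, against 40.3% and 87.6% of all tested genes called in either direction. Clec7a, the beta-glucan receptor Dectin-1, rose from 141 ± 13.2 normalised read counts to 1226 ± 267 at IL-4 0.5 h (adjusted p 3.86e-07). Clec4d fell by 4.32, Clec4n fell by 3.08 and Clec4e, the receptor Mincle, fell by 3.05 at IL-4 2 h. At LPS 0.5 h Clec4e rose by 6.73 (adjusted p 1.69e-12) and Clec4d by 3.36 (adjusted p 1.18e-10), while Mrc2, the nearest relative of Mrc1, held 0 to 22 normalised read counts, with a change of 2.46 at LPS 4 h (adjusted p 0.0136). Ly75, the receptor DEC-205, rose by 3.76 at LPS 4 h and Clec4b1 fell by 3.50 at LPS 1 h. The 19 tested genes of classical activation all rose over the LPS course (87.6% of all tested genes changed), with the highest changes for Ccl5 (11.32 at 2 h), Acod1 (11.16 at 4 h), Nos2 (10.19 at 4 h) and Ptgs2 (9.75 at 4 h). Over the IL-4 course 5 of 19 changed, 2 upwards and 3 downwards by the time of the largest change, against 40.3% of all tested genes. At IL-4 0.5 h 4 of the 19 were called higher and 0 lower, against 8.15% and 8.14% of all tested genes. Cd40 was higher by 3.13 at 2 h (adjusted p 7.01e-07) and Cd86 by 2.22 at 0.5 h (adjusted p 1.62e-05). Il1b fell by 2.26 (adjusted p 0.0111) and Ccl4 fell by 1.93 (adjusted p 0.00417) at 2 h.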

How the data were processed

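Chromatin-associated RNA of 27 samples was sequenced by the authors from random-primed Smart-seq2 libraries. Per the study's methods, reads were aligned to mm10 with TopHat2, multi-mapping and blacklisted reads were removed, reads were counted per gene (GRCm38.p6) and libraries were scaled on invariant genes. The submitters' processing notes name TopHat2 2.1.1, bedtools 2.29.2, R 3.6.2 and DESeq2. The values deposited by the authors are these normalised read counts as whole numbers, handled here as a score and not as raw counts, so a design for raw counts was not used. Use of strand in counting is not given in the sources used here, and the depth behind each sample is not given by the values, so no counting interval was computed.

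The tests were run on log2(value + 1) in limma 3.58.1 (R 4.3.3, mean-variance trend, Benjamini-Hochberg adjustment over 13901 genes, which held 99.6% of all values, threshold 0.05). Each course was fitted with its 15 samples, and LPS and IL-4 were compared in 1 fit of 27 samples. The log2(value + 1) scale understates changes of low genes, and folds are ratios of group means. The code was checked on simulated data. The marker genes, the lists beside them and the alternatives (pseudocounts 8 and 0.5, filters, scalings, replicate block, left-out or averaged replicates, no trend, sample weights) were chosen with earlier results of these data known. Named genes were the 8 markers, their relatives, the 3 genes with the highest Pearson r to each (highest group mean of at least 50, no overlap), and per list up to 4 called genes with the largest change, of which 1 is not reported here. Promoter letters are from RefSeq.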

Additional observations from a re-analysis of the deposited data

Results flagged for a closer look

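The following differences were singled out because the marker was called higher after IL-4 and lower after LPS at the same time, with the direct comparison of the stimuli also passing. Mrc1 differed by −5.07 on the log2 scale at 1 h (adjusted p 1.5e-17), −5.11 at 2 h (adjusted p 5.24e-18) and −6.21 at 4 h (adjusted p 1.67e-19), with changes of 3.08 and −1.99, 2.73 and −2.37, and 2.05 and −4.16 after IL-4 and LPS. Clec10a differed by −5.76 at 4 h (adjusted p 6.02e-09), from 1.96 after IL-4 and −3.80 after LPS, where its values were too low to read. Irs2 differed by −2.60 at 4 h (adjusted p 5.99e-08), from 0.88 and −1.73. Arg1 differed by −3.06 at 1 h (adjusted p 1.61e-06), from 1.65 and −1.41. Mgl2 differed by −5.01 at 2 h (adjusted p 1.66e-08), a value that depends on the pseudocount because all its LPS samples at 2 h were at 0. Arg1 and Mgl2 entered the tests only through their high IL-4 groups, so their differences between the stimuli are given as a description. The LPS calls of Arg1 at 1 h and of Mgl2 at 2 h, the IL-4 calls of Arg1 at 1 h, of Irs2 at 4 h and of Clec10a at 4 h were each lost when 1 replicate was left out. Groups of 3 samples are too small for a test of single outlying samples.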

How the results depend on the processing

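Over the 13 alternatives and all changes of the tested markers against untreated and between the stimuli, 974 values kept direction and call, 38 lost the call, 24 gained it and 8, none of them called, changed sign. The sign changes were those of Arg1 at LPS 0.5 h (0.056) and 4 h (0.056) with median-of-ratios scaling, of Arg1 at LPS 4 h without replicate 3 (−0.5 to 0.26 over the left-out replicates), of Irs2 at IL-4 2 h without replicate 3 (−0.035 to 0.37), of Mgl2 at LPS 0.5 h without replicate 1 (−1.5 to 0.29), and at equal totals of Mrc1 at LPS 0.5 h (−0.21), of Irs2 between the stimuli at 1 h (−0.041) and of Tgm2 between them at 2 h (−0.14). A required mean of 50 removed low markers by construction and left 3 called over the IL-4 course and 2, 2, 1 and 3 between the stimuli, in order of time. Leaving out 1 replicate gave 5 to 7 markers called over the IL-4 course, 4 to 5 over the LPS course, and 3 to 6, 5 to 6, 5 to 7 and 7 (in each) between the stimuli, in order of time (3 at 0.5 h without replicate 2). Equal totals moved the median gene to −0.73, −0.86, −0.91 and −0.84 at the LPS times. With replicates 2 and 3 averaged, 3 markers were called at IL-4 0.5 h and 3 at 1 h.

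Same-numbered samples deviated together, least so for replicate 2, with correlations of at least 0.351, 0.0897 and 0.202 for replicates 1, 2 and 3. Of the 27 samples 19 correlated best with their own number, which is a hint from the data and not from the design. With the replicate number as a block 7 markers and 7409 genes changed over the IL-4 course, 5 markers and 12850 genes over the LPS course, and 5, 6, 6 and 7 markers differed between the stimuli. The block brought the calls of Clec10a at IL-4 0.5, 1 and 2 h (adjusted p 0.000101, 0.000331 and 0.00219) and at LPS 0.5 h (0.0338), of Mrc1 at LPS 0.5 h (0.0412) and of Tgm2 between the stimuli at 2 h (0.04). Values at or under 3 normalised read counts limit Chil3, Retnla, Mgl2 and Clec10a.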
